A study of Caenorhabditis elegans with 15 samples.

Results

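The genes described are unc-120, hlh-1 and hnd-1, the transcription factor genes that specify body-wall muscle in Caenorhabditis elegans, followed across muscle stages, neurons and multiple tissues. They were chosen by name, not by their values. Of the 3 genes, 1 (unc-120) has a row in the deposited table of gene counts as used here, which lists 14831 genes. All 3 appear in the deposited site table, in which 18728 genes have a trans or cis site.

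In the nematode embryo these factors act in a network downstream of the caudal-type homeodomain factor PAL-1, and each can contribute to turning embryonic cells into body-wall muscle. HLH-1 is the nematode relative of the vertebrate MyoD family of basic helix-loop-helix factors, UNC-120 belongs to the MADS-box family of serum response factor, and HND-1 is a Hand-type basic helix-loop-helix factor. HLH-1 and UNC-120 are known to persist in differentiated muscle, whereas HND-1 is known mainly as an early embryonic factor.

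The study tagged RNA in chosen tissues by spliced leader trans-splicing, in which a short leader RNA is joined to the 5' end of a pre-mRNA at an acceptor site. A leader with an added tag was expressed from a tissue promoter, tagged RNA was pulled down with a biotin probe, amplified by PCR and sequenced. The strains were PU2-3::tag:SL1(G16C) for multiple tissues (2 libraries, mixed stage), Pmyo-3::tag:SL1(G16C) for body-wall muscle (L1, 1 library; L2, 1; dauer, the arrested larva, 2; young adult, 2; day 12 of adulthood, 2) and Prgef-1::tag:SL1(G16C) for neurons (young adult, 2; day 12, 2). A further mixed-stage muscle library (1) carried Pmyo-3::tag:SL2(T5A), with the leader that is used mostly inside operons; SL2 is what its title and strain say, while its description says SL1. Young adults of both tissues were on day 1 of adulthood. All groups carry a tagged leader transgene and grew at 20 °C. Dauers came from liquid culture and were selected with SDS. Day 12 animals had grown on 400 µM fluorodeoxyuridine, so age and drug cannot be told apart, and tissue and stage cannot be told apart against the mixed-stage libraries. In such bulk samples fewer muscle cells and less RNA per cell cannot be told apart either.

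Reads assigned to genes ranged from 57104 to 9587967 per library and from 464359 upward in muscle. The neuron libraries were the shallowest, at 57104 to 282171 reads. A list of 7 body-wall muscle markers, 4 of them in the count table, summed to between 1055 and 5636 reads per 1000000 gene-assigned reads (CPM, not scaled further) in the 8 SL1-tag muscle libraries. The same sum was 8.65 to 12.4 CPM in multiple tissues and 15.8 to 71.4 CPM in neurons, where myo-3, the muscle myosin gene, had no read. In muscle, unc-15 had no read at its trans sites in any library and myo-3 had none in day 12 replicate 1. A list of 15 neuronal genes, 14 in the table, summed to 599 to 3595 CPM in the SL1-tag muscle libraries, against 4774 to 5674 CPM in neurons, and its part in the values of the muscle factors was not tested. A list of 16 germline genes, 15 in the table, summed to 8253 and 8410 CPM in multiple tissues. It summed to 91.7 to 766 CPM in the SL1-tag muscle libraries and 1016 to 2641 CPM in neurons. In each young adult neuron library only 1 of the 15 genes, pie-1, had a read. In day 12 neurons 2 and 4 of them had reads. The part of the germline list in the comparisons with multiple tissues was not tested. Of 5 listed pharyngeal genes 3 are in the table, and myo-2 and tnc-2 among them had no read in any library. The remaining gene, pha-4, stood at 0 CPM in 7 of the 8 SL1-tag muscle libraries and at 12.9 CPM in day 12 replicate 1. In neurons it stood at 87.6 to 291 CPM. The list therefore cannot show whether pharyngeal muscle RNA was present.

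The genes differ in where tagged leaders were read. unc-120 (WBGene00006844) spans I:8460225-8463015 on the + strand of WBcel235 and has 4 exons in its transcript D1081.2.1. The authors list 1 trans site at exon 1, which makes up its gene count, and cis sites at exon 2 and exon 3. A cis site is an acceptor otherwise joined to the preceding exon of the same gene. The exon 3 acceptor lies downstream of 513 of the 981 coding bases, and the exon 2 acceptor downstream of 225.

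hlh-1 (WBGene00001948) spans II:4518574-4522528 on the + strand and has no trans site in the table used here. Its acceptor with most reads in muscle, at the exon starting at position 4519067, is classed there as a cis site at exon 2 of 7. In the WBcel235 annotation that exon is exon 2 of transcript B0304.1a.2 but also the first exon of transcript B0304.1b.1, so it is called the first coding exon site here. The start codon follows at position 4519069. Such a position was uncommon, since 244 of 32276 cis sites in the table are at the first exon start of an annotated transcript of their gene. hnd-1 (WBGene00001981) spans X:11684561-11685788 and has 2 cis sites, at exon 3 and exon 4 of 4. Strand and build matter for these placements: the build is not given in the sources used here, but 90.6% of the cis sites on each strand match WBcel235 exon starts. The gene model plot shows how the reads divide.

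**Figure D1:**
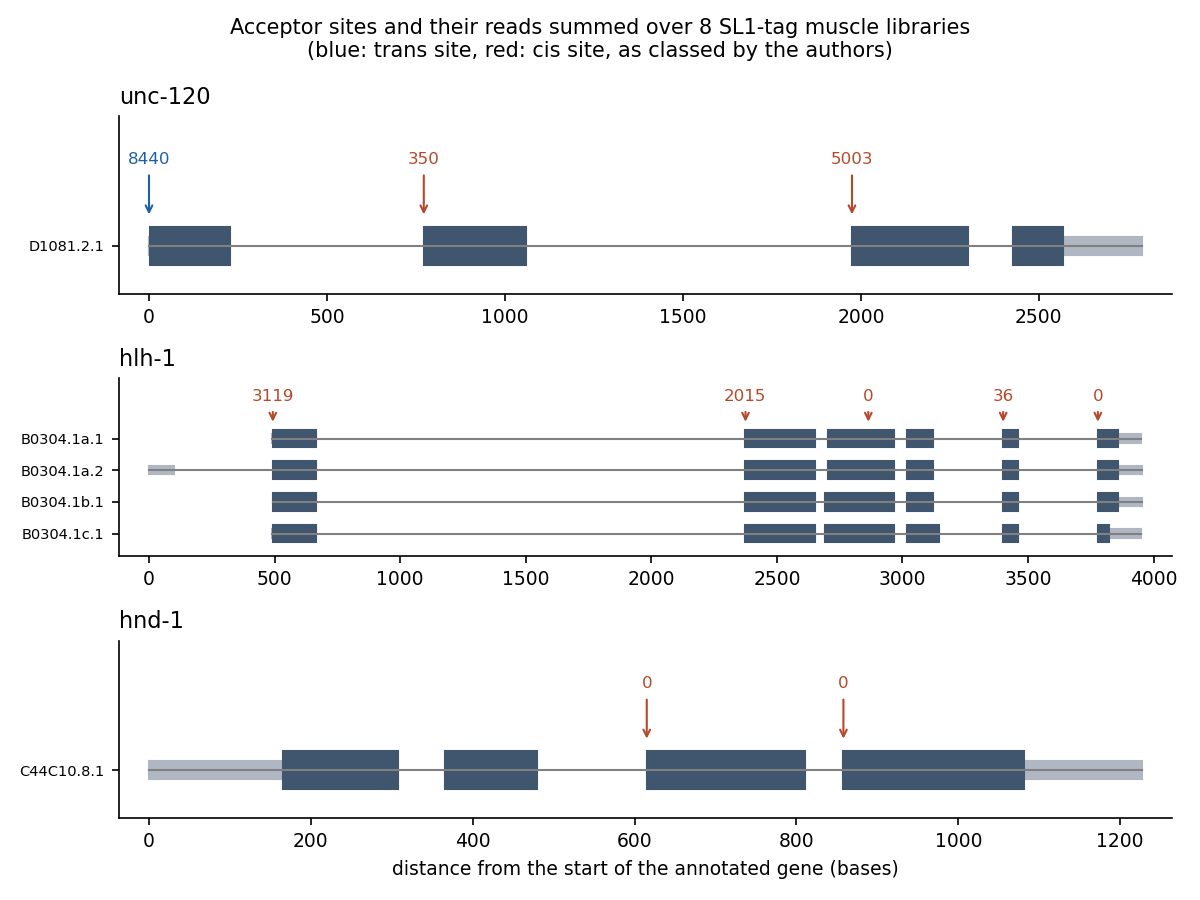
Gene models of unc-120, hlh-1 and hnd-1 in WBcel235 against distance from the gene's annotated start in bases, with coding exons as dark boxes, untranslated exon parts as light boxes and introns as lines; arrows mark acceptor sites on the gene's strand with the reads summed over the 8 SL1-tag muscle libraries. Of the unc-120 reads 8440 fall on the exon 1 trans site and 5003 on exon 3, hlh-1 has 3119 on its first and 2015 on its second coding exon, and hnd-1 has 0.

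The comparison of muscle with multiple tissues asks which RNAs were tagged more often under the muscle promoter than under the U2-3 promoter. Tagged unc-120 RNA was read in all 8 SL1-tag muscle libraries and was almost absent elsewhere. Its exon 1 site held 127 reads in L1, 296 in L2, 1261 and 5216 in dauer, 355 and 734 in young adult, and 40 and 411 in day 12 muscle. The multiple-tissue libraries held 0 and 4 reads. Every muscle library was therefore above both multiple-tissue libraries in reads, although some muscle libraries were shallower.

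Relative to the gene-assigned reads, unc-120 stood at 179 CPM in L1 (95% Poisson interval 149 to 213) and 163 CPM in L2 (145 to 183). It stood at 591 ± 66.9 CPM (SD, n = 2) in dauer, from 639 and 544 CPM, and at 339 ± 26.3 CPM (SD, n = 2) in young adults, from 358 and 321 CPM. In day 12 muscle it stood at 165 ± 111.6 CPM (SD, n = 2), from 86.1 and 244 CPM. Both dauer libraries were above both young adult libraries, and these above both larval libraries, while the day 12 libraries lay on either side of the larval values. Multiple tissues stood at 0 and 1.10 CPM. Intervals and limits cover counting error alone: the libraries were amplified without molecular identifiers, so reads are not separate molecules.

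unc-120 was higher than in multiple tissues at every muscle stage (edgeR's quasi-likelihood test, adjusted over 8954 genes). In young adult muscle the log2 fold change was 8.92 ± 1.38 (SE; edgeR adjusted p = 0.00656), a comparison that called 5.12% of tested genes. In day 12 muscle it was 7.42 ± 1.31 (adjusted p = 0.0102; 9.82% called), in dauer 9.21 ± 1.40 (adjusted p = 0.00509; 7.45% called) and in larvae, the mean of L1 and L2, 7.71 ± 1.33 (adjusted p = 0.0101; 7.01% called). These 4 calls share the multiple-tissue libraries and held with each of the 14 SL1-tag libraries left out in turn. As pooled counts, the ratio to multiple tissues was 484 in young adults (95% interval 188 to 1779), 306 on day 12 (119 to 1128), 817 in dauer (319 to 2999), 261 in L1 (99.5 to 973) and 238 in L2 (91.9 to 878), resting on the 4 reads in multiple tissues.

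The authors' deposited table gives ratios of normalised means for the same gene of 582 in young adults, 209 on day 12, 608 in dauer and 191 in larvae against multiple tissues. Its adjusted p-values are 1.81e-72, 0.000166, 2.08e-42 and 0.000991. For day 12 against young adult muscle it gives 0.474 (adjusted p = 1), and for dauer against larval muscle 3.71 (adjusted p = 1).

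**Figure D2:**
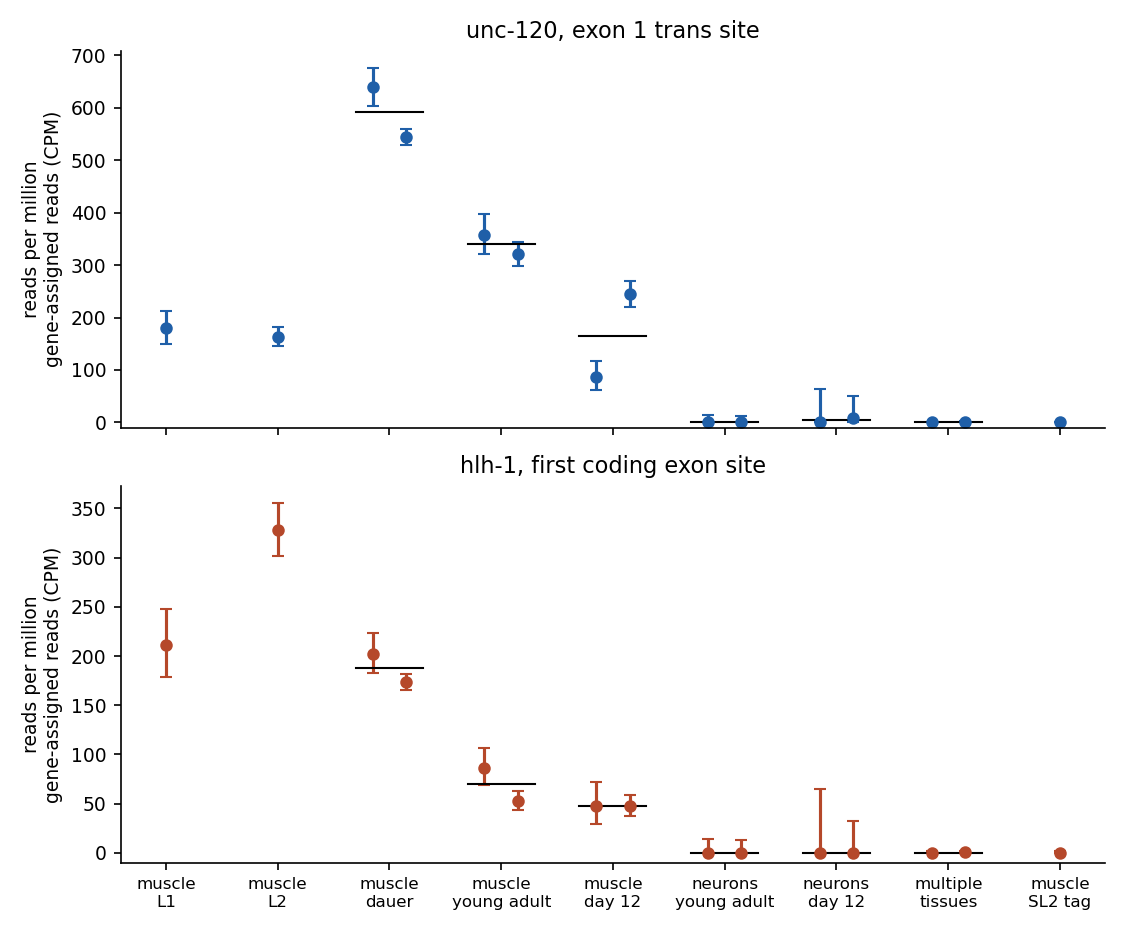
Level of unc-120 at its exon 1 trans site and of hlh-1 at its first coding exon site in each of the 15 libraries, in CPM; points are libraries with 95% Poisson intervals and lines are means of 2 libraries. unc-120 is highest in dauer at 639 and 544 CPM, hlh-1 highest in L2 at 328 CPM, and both are at or near 0 in neurons and multiple tissues. In day 12 neurons 3 counts are 52.5 and 26.8 CPM, so low values there bound the level only loosely.

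hlh-1 is the MyoD-type member and was likewise read in all 8 SL1-tag muscle libraries. Its first coding exon site held 150 reads in L1, 595 in L2, 400 and 1665 in dauer, 86 and 121 in young adult, and 22 and 80 in day 12 muscle. Multiple tissues held 0 and 3 reads there. No muscle library fell within the range of the multiple-tissue libraries.

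Its level at that site was 212 CPM in L1 (95% Poisson interval 179 to 248) and 328 CPM in L2 (302 to 355). It was 188 ± 20.5 CPM (SD, n = 2) in dauer, from 203 and 174 CPM. It was 69.8 ± 23.9 CPM (SD, n = 2) in young adults, from 86.7 and 52.9 CPM, and 47.4 ± 0.083 CPM (SD, n = 2) on day 12, from 47.4 and 47.5 CPM. These values set a cis site against gene-assigned reads, which leave out cis sites. Gene-assigned reads were 709137 in L1 and 1815663 in L2, against 1028495 and 3094165 trans and cis reads. In dauer they were 1974529 and 9587967, against 2270311 and 11288050. Over trans and cis reads the L1 and L2 values would therefore stand lower relative to dauer. The 2 larval and 2 dauer libraries were all above the 4 adult libraries. Between young adult and day 12 the counting intervals overlapped, except that young adult replicate 1 was higher than day 12 replicate 2. The 2 young adult libraries also differed by more than their intervals of 69.3 to 107 and 43.9 to 63.2 CPM. With edgeR's TMM scaling the same site stood at 110.5 and 72.8 CPM in young adults and at 32.7 and 50.0 CPM on day 12, so that the stages did not overlap on that scale. For unc-120 the order of stages was different, with dauer and young adult above both larvae.

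Because hlh-1 has no row in the gene counts used here, it was tested on counts summed over trans and cis sites of each gene (12235 genes tested). hlh-1 was higher than in multiple tissues in young adult muscle, by a log2 fold change of 4.57 ± 0.85 (SE; edgeR adjusted p = 0.0089), where 6.86% of genes were called. It was also higher on day 12 (4.17 ± 0.83; adjusted p = 0.0108; 10.1% called), in dauer (5.22 ± 0.87; adjusted p = 0.00449; 8.86% called) and in larvae (6.87 ± 0.94; adjusted p = 0.0014; 10.3% called). These 4 calls depend on single libraries. Without multiple-tissue replicate 1 the adjusted p was 0.265 in young adults, 0.273 on day 12, 0.167 in dauer and 0.0611 in larvae. Without replicate 2 the first 3 were 0.0866, 0.0934 and 0.0543, and the day 12 call was also lost without day 12 neuron replicate 1 (0.0521) or replicate 2 (0.0508).

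The summed counts of hlh-1 in multiple tissues, 6 and 16 reads, lay mostly on its later exons. The acceptor at position 4521975 held 5 and 6 reads and the last, at 4522352, 1 and 7. In muscle these sites held 36 and 0 reads in all, against 3119 at the first coding exon. Counted at the first coding exon site, a choice made after seeing the data, hlh-1 had a log2 fold change over multiple tissues of 7.01 ± 1.32 (SE; edgeR adjusted p = 0.0215) in young adults, 5.87 (adjusted p = 0.0272) on day 12, 7.95 (adjusted p = 0.012) in dauer and 8.72 (adjusted p = 0.0101) in larvae.

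hnd-1, the Hand-type factor, had no read at either of its sites in any muscle or multiple-tissue library. At these depths 0 reads allow up to 3 counts, which is 0.266 CPM of trans and cis reads in dauer replicate 2 and 5.47 CPM in day 12 replicate 1. Its 2 reads in the whole series fell on exon 4 in day 12 neuron replicate 2. An RNA that receives no SL1 leader cannot be seen by the assay, so a count of 0 sets a limit on tagged RNA and not on expression.

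The comparison with neurons asks whether the muscle-driven tag captured RNAs that a neuron-driven tag did not. unc-120 had 0 and 0 reads in young adult neurons, where 3 counts correspond to 11.8 and 10.6 CPM. Pooled over libraries it was at least 59.3-fold higher in young adult muscle, a bound set by 3 counts over the neuron libraries, and at least 28.1-fold with any 1 library left out. The difference passed the test (edgeR adjusted p = 0.00533; 13.1% of genes called in this comparison). hlh-1 had 0 reads at all its sites in young adult neurons, was at least 11.3-fold higher in young adult muscle at the first coding exon site (at least 5.33-fold with any 1 library left out), and passed in the counts over trans and cis sites (adjusted p = 0.00132; 15.6% called).

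On day 12 the depth in neurons limits the comparison. unc-120 held 0 and 1 reads at exon 1 in day 12 neurons, where 3 counts are 52.5 and 26.8 CPM, and 40 and 411 in day 12 muscle. The pooled ratio was 35.5 with a 95% interval of 6.34 to 1406. The log2 fold change of 5.34 ± 1.44 did not pass (SE; edgeR adjusted p = 0.071, range over alternatives 0.00298 to 0.243; 5.44% called), and it did pass without day 12 muscle replicate 1 (0.0352) or without multiple-tissue replicate 1 (0.0277) or 2 (0.035). hlh-1 had 0 reads at the first coding exon in day 12 neurons, a bound of at least 2.68-fold for muscle that fell to 0.904 with 1 library left out. Over trans and cis sites hlh-1 held 2 and 5 reads in day 12 neurons and 36 and 195 in day 12 muscle. Its summed counts gave 2.30 ± 0.83 (adjusted p = 0.131; 6.82% called). Whether the difference between muscle and neurons changed with age was tested as an interaction. It did not pass for unc-120 (edgeR adjusted p = 0.456) or for hlh-1 (adjusted p = 0.0906).

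Among muscle stages no difference passed the test for either gene. For unc-120 the log2 fold change from young adult to day 12 was -1.50 ± 0.97 (SE; edgeR adjusted p = 0.372), in a comparison that called 1.55% of genes. Dauer against larvae gave 1.51 ± 0.97 (adjusted p = 0.429; 3.29% called), beside a median of 1.35 over all tested genes. Dauer against young adult gave 0.29 ± 0.95 (adjusted p = 1; 0.134% called), and young adult against larvae 1.21 ± 0.96 (adjusted p = 0.594; 1.22% called). With cis sites added, unc-120 stood 0.28 lower in dauer than in larvae (log2 fold change -0.28, adjusted p = 1) and 0.31 lower in dauer than in young adults (-0.31, adjusted p = 1), and its young adult against larval value was 0.027 (adjusted p = 1), so its stage order depends on which sites are counted.

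For hlh-1 the corresponding values over trans and cis sites were -0.41 ± 0.72 for day 12 against young adult (SE; edgeR adjusted p = 0.87; 1.19% called; -1.14 ± 1.00, adjusted p = 0.526, at the first coding exon site) and -1.65 ± 0.74 for dauer against larvae (adjusted p = 0.262; 3.74% called). Dauer against young adult gave 0.65 ± 0.72 (adjusted p = 0.955; 0.123% called). Young adult against larvae gave -2.30 ± 0.75 (adjusted p = 0.157; 2.38% called), which passed without day 12 muscle replicate 2 (adjusted p = 0.0481), by DESeq2's Wald test (adjusted p = 0.00321) and in a fit of those groups alone (0.000626). The common biological coefficient of variation was 1.09 for gene counts and 1.11 for trans and cis sites, and a p that misses the threshold does not show that stages had equal levels. Day 12 replicate 1, the shallowest muscle library, held no myo-3 read.

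The balance of the factors differed between libraries. Within a library, unc-120 exon 1 reads can be set against hlh-1 first coding exon reads, as a measure to compare between libraries and not as relative abundance of the RNAs. The ratio was 0.847 in L1 (95% interval 0.663 to 1.08) and 0.497 in L2 (0.431 to 0.573). It was 3.15 and 3.13 in dauer, 4.13 and 6.07 in young adults, and 1.82 (1.05 to 3.21) and 5.14 in day 12 muscle. Both larval libraries were below the other 6, and the dauer libraries differed by less than their counting intervals of 2.81 to 3.54 and 2.96 to 3.31. Over all trans and cis sites the ratio was 0.395 in L1 but 2.73 in L2, above the 2.50 of dauer replicate 2 and the 2.08 of day 12 replicate 1, so L2 joined the others once the exon 3 reads of unc-120 were added. With 1 library each for L1 and L2 these ratios carry no replicate test.

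**Figure D3:**
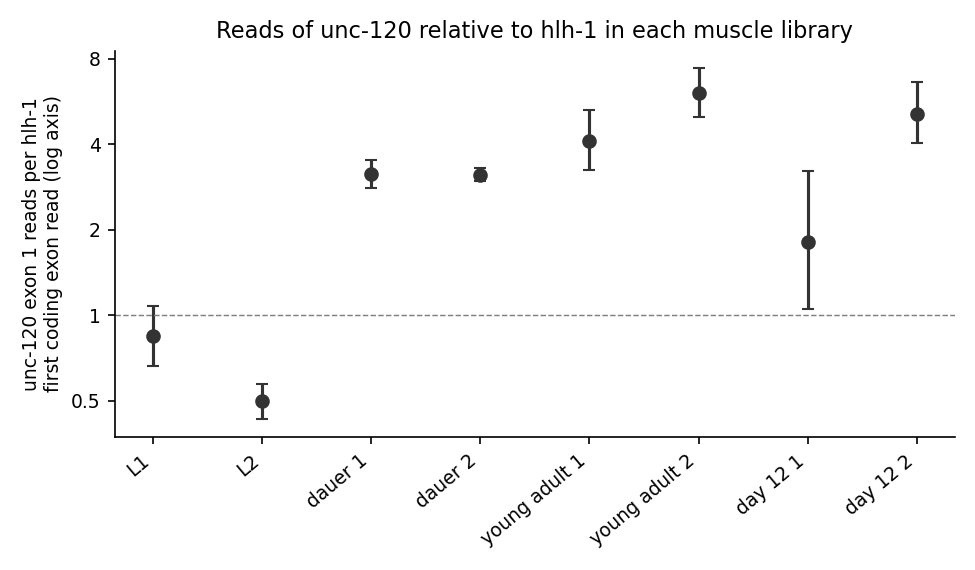
Reads at the unc-120 exon 1 site per read at the hlh-1 first coding exon site in each of the 8 SL1-tag muscle libraries, on a log axis with 95% intervals for counting error; the dashed line marks equal reads. The L1 and L2 libraries stand at 0.847 and 0.497, and the other libraries between 1.82 and 6.07.

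The use of internal acceptors differed widely between libraries. At unc-120 the exon 3 site held 56 of 183 reads in L1, or 30.6% (95% Clopper-Pearson interval 24.02 to 37.83), but 3790 of 4086 in L2, or 92.8% (91.9 to 93.5). It held 3.81% and 0% in dauer, 31.3% and 32.0% in young adults, and 46.7% and 57.8% on day 12. The young adult libraries lay within each other's intervals. L2 stood far above all others and dauer below all others. Dauer replicate 2 had no exon 3 read but 347 exon 2 reads, 6.24% of its unc-120 reads, a site with 0 to 2 reads in the other muscle libraries, so the 2 dauer libraries differ in which acceptor was used.

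At hlh-1 the second coding exon, which lies downstream of 170 of 972 coding bases, held 67.6% of the gene's reads in L1 and 60.3% in L2. It held 12.3% and 25.1% in dauer, 22.5% and 18.7% in young adults, and 27.8% and 59.0% on day 12. The larval libraries were above all others, with day 12 replicate 2 next to them at an interval of 51.7 to 66.0. The share of all site reads that fell on cis sites was also highest in the larval libraries, with day 12 replicate 2 next. That share was higher in L2 than in L1, the reverse of the hlh-1 second coding exon. It was 29.6% in L1, 39.8% in L2, 12.8% and 14.7% in dauer, 13.9% and 14.6% in young adults, and 14.7% and 20.4% on day 12. It was 3.95% and 3.91% in multiple tissues and 50.6% to 54.2% in neurons, libraries against which hlh-1 was tested on counts that include cis sites. Its part in those tests and in the shares of both genes was not tested.

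**Figure D4:**
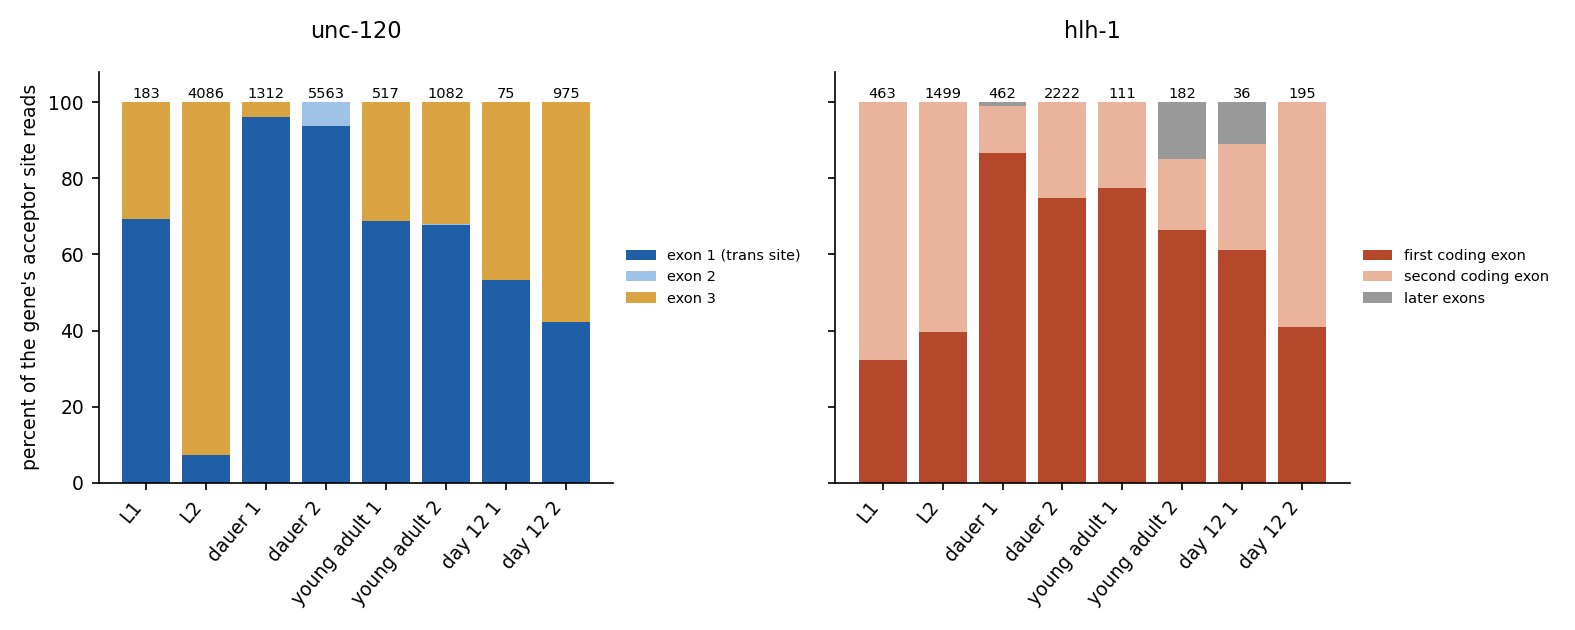
Share of each gene's acceptor site reads, in percent, that fall on each exon in the 8 SL1-tag muscle libraries for unc-120 and hlh-1; numbers above the bars are the reads behind each bar. The exon 3 site takes 92.8% of unc-120 reads in L2 and 0% in dauer replicate 2, and the second coding exon of hlh-1 takes 67.6% in L1 and 12.3% in dauer replicate 1.

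The SL2-tag muscle library held no read of unc-120, hlh-1 or hnd-1 at any site. In 2520944 gene-assigned reads, 0 reads allow up to 1.19 CPM. Compared with L2 muscle, unc-120 was at least 137-fold lower in it and hlh-1 at least 275-fold lower at the first coding exon site, as a description of 1 library against 1 library of another stage. In that library 992 of the 14831 genes had a read, and the body-wall muscle markers myo-3, unc-15, unc-27 and tni-3 also had none.

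In the authors' deposited table of earlier gene sets, unc-120 is marked as known from a reporter or immunostaining in muscle, from sorted embryonic muscle, from purified nuclei of young adults, as a target in HLH-1 ChIP-seq and as a trans-spliced gene. It is not marked for poly(A)-binding protein RNA immunoprecipitation in L1. hlh-1 is marked for the reporter and for sorted embryonic muscle, and not for the others, trans-splicing included. In muscle the 3119 reads at the first coding exon made up 60.3% of the reads of hlh-1 over trans and cis sites.

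HLH-1 is a DNA-binding activator, so the genes marked as HLH-1 ChIP-seq targets were followed as well. Of 623 marked genes, 544 are in the count table and 468 were tested. In young adult muscle 63 were higher and 5 lower than in multiple tissues, that is 13.5% higher against 3.93% of all tested genes, of which 1.18% were lower, with a median log2 fold change of 0.99 against 0 (0.82 with genes lacking reads in a group set to their bound). In dauer 67 were higher and 5 lower (14.3% higher against 5.14%, with 2.31% of all genes lower; median 1.60, or 1.19 with bounds, against 0). On day 12, 59 were higher and 22 lower (12.6% higher against 4.88%, with 4.94% of all genes lower; median 0.15, also with bounds, against -0.29, or 0 with bounds). In larvae 53 were higher and 10 lower (11.3% higher against 3.53%, with 3.48% of all genes lower; median -0.03, or 0 with bounds, against -1.43, or -0.40 with bounds).

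Between stages few HLH-1 targets passed by edgeR. From young adult to day 12, 2 were higher and 6 lower (0.427% higher against 0.603% of all genes, of which 0.949% were lower). Dauer against larvae gave 15 higher and 5 lower (3.21% higher against 2.69%, with 0.603% of all genes lower), dauer against young adult 0 and 2 (0.0558% and 0.0782% of all genes), and young adult against larvae 10 and 3 (2.14% higher against 1.02%, with 0.201% of all genes lower). Dauer against young adult gave 28 targets higher and 21 lower at an unadjusted p under 0.05, where 411 and 280 of all 8954 genes were, and DESeq2 called 17 and 15, where it called 233 and 125 of all genes. Against neurons edgeR called 76 targets higher and 7 lower in young adult muscle (16.2% higher against 8.67%, with 4.46% of all genes lower). On day 12 it called 29 and 7 (6.2% against 3.03%, with 2.41% of all genes lower). DESeq2 called 77 and 36 in young adults (881 and 932 of all genes). On day 12 DESeq2 called 34 and 35 (301 and 713). Limma called 133 and 19 in young adults (1676 and 874), and 69 and 30 on day 12 (685 and 1210).

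Other regulators of the muscle and mesoderm lineage were followed in a list of 26 genes that includes the 3 factors. Of these, 17 are in the count table and 15 were tested. In young adult muscle 2 were higher than in multiple tissues, unc-120 and mab-5, a Hox gene used in the postembryonic mesoderm (3.93% of all genes were higher). In dauer 3 were higher, unc-120, mab-5 and ceh-20, a Pbx-type cofactor of Hox proteins (5.14%). On day 12 unc-120 and ceh-20 were higher (4.88%), and in larvae unc-120 (3.53%). By edgeR 0 were lower in these comparisons, where 2, 1, 2 and 4 of the 15 were lower at an unadjusted p under 0.05 in young adults, on day 12, in dauer and in larvae. Of all 8954 genes 877, 1542, 941 and 1631 were lower at that p. DESeq2 called 1 lower in young adults (364 of all genes) and 0 in the other stages (653, 390 and 799), and limma on the RPM values called 3, 3, 3 and 4 lower (1319, 2016, 1398 and 1876 of all genes). Between stages edgeR called 0 in either direction (0.134% to 3.29% of all genes called), with 0 to 3 at an unadjusted p under 0.05 (691 to 1760 of all genes), DESeq2 called 0 or 1 (358 to 1168) and limma 0 or 1 (179 to 1007). The list's median log2 fold change was -0.73 in young adults against 0 for all genes, or 0 with bounds, and 2.88 on day 12 against -0.29, also 2.88 with bounds against 0. It was -0.20 in dauer against 0, also with bounds, and -2.74 in larvae against -1.43, or 0 against -0.40 with bounds. On day 12 hlh-8 held 17 and 0 reads, tbx-8 24 and 0, let-381 26 and 0, mef-2 45 and 0 and sem-2 80 and 6, so the day 12 values of these genes rest mostly on replicate 1.

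mab-5 held 2 and 2 reads in multiple tissues, 169 and 370 in young adult muscle and 706 and 1935 in dauer, with no overlap. Its log2 fold change was 7.72 ± 1.81 (SE; edgeR adjusted p = 0.0383) in young adults and 7.98 ± 1.83 (adjusted p = 0.0262) in dauer. It also held 0 and 38 reads in young adult neurons, 0 and 135 CPM, and its difference between muscle and neurons was 1.68 ± 1.37 (adjusted p = 0.449). ceh-20 held 43 and 62 reads in multiple tissues, 576 and 3380 in dauer and 111 and 325 on day 12, with log2 fold changes of 3.57 ± 0.82 (adjusted p = 0.026) and 2.88 ± 0.79 (adjusted p = 0.0483). It also held 12 and 34 reads in young adult neurons and 11 and 6 on day 12, from 47.3 to 193 CPM. Its difference between muscle and neurons was 0.78 ± 0.76 (adjusted p = 0.531) in young adults and 1.26 ± 0.79 (adjusted p = 0.4) on day 12.

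pal-1, the caudal-type gene upstream of the 3 factors in the embryo, ran the other way without passing. It held 320 and 640 reads in multiple tissues, 6 in L1, 0 in L2, 9 and 0 in dauer, 0 and 0 in young adults, and 46 and 15 on day 12. The adjusted p was 0.101 in young adults, 0.152 in dauer, 0.123 in larvae and 0.417 on day 12. The multiple-tissue libraries also had the highest germline marker sums, whose part in the pal-1 values was not tested. mef-2, the other MADS-box factor of muscle lineages in many animals, held 1 and 0 reads in multiple tissues, 145 and 716 in dauer and 7 and 34 in young adults. It did not pass in any comparison (smallest adjusted p against multiple tissues 0.139, in dauer).

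For hlh-8, sem-2 and tbx-8, picked from the list after their values were seen, most muscle reads came from day 12 replicate 1. hlh-8, the Twist-type gene, held 14 reads in L1 and 17 in day 12 replicate 1, and 0 in every other library. sem-2, a SoxC-type gene, held 80 reads in day 12 replicate 1, 6 in replicate 2 and 0 in the other SL1-tag muscle libraries. tbx-8 held 24 reads in day 12 replicate 1 and 0 in all other muscle libraries. unc-120 was at its lowest muscle level, 86.1 CPM, in that same library, and whether these values are linked was not tested.

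**Figure D5:**
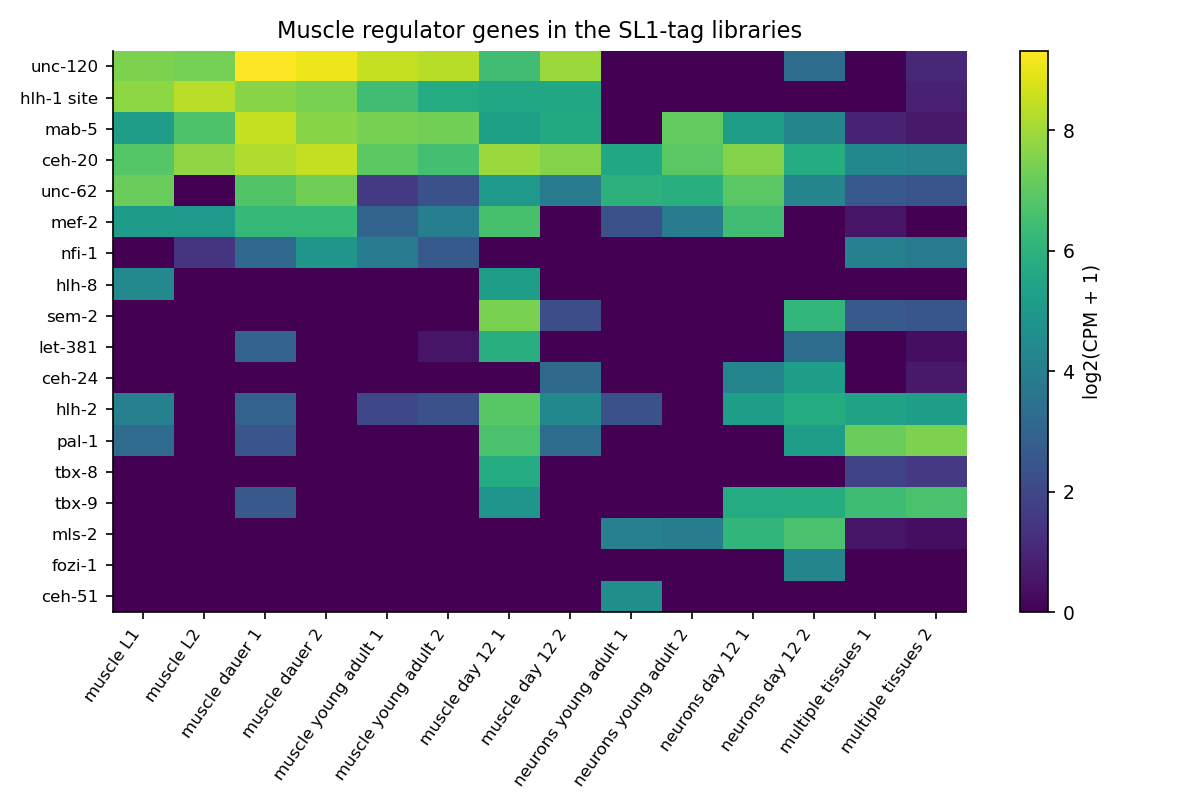
Levels of unc-120, hlh-1 (first coding exon site) and 16 other muscle and mesoderm regulators in the 14 SL1-tag libraries, as log2(CPM + 1); rows are to be read across libraries and not against each other. unc-120 and hlh-1 are read in all 8 muscle libraries and stand at no more than 8.92 CPM elsewhere, whereas pal-1 and tbx-9 are high in multiple tissues. In day 12 neurons 3 counts are 52.5 and 26.8 CPM, so low values there bound the level only loosely.

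Genes on which muscle function rests were followed beside the regulators. Of 15 tested sarcomere genes 10 were higher in muscle of young adults than in multiple tissues, 8 on day 12 (1 lower), 8 in dauer and 9 in larvae (1 lower). Of all tested genes 3.93%, 4.88%, 5.14% and 3.53% were higher in these 4 comparisons, which is the background of each list here, and 4.94% on day 12 and 3.48% in larvae were lower. The thin-filament protein gene unc-87 gave a log2 fold change of 10.09 ± 0.68 (SE; edgeR adjusted p = 9.95e-05) and the troponin I gene unc-27 gave 8.71 ± 0.72 (adjusted p = 0.000183) in young adults. Their median was 8.63 against 0 for all genes, also 8.63 with bounds. Of 22 attachment genes 9 were higher in young adults, 8 on day 12, 7 in dauer and 8 in larvae. In young adults these included pfn-3, a profilin gene (9.82 ± 0.90, adjusted p = 0.000347), and lim-9 (8.38 ± 0.99, adjusted p = 0.00107). Of 19 excitation genes 4 were higher in young adults, 4 on day 12, 3 in dauer and 4 in larvae. In young adults these included csq-1, the calsequestrin gene (7.55 ± 1.02, adjusted p = 0.00344), and dyb-1 (7.42 ± 1.42, adjusted p = 0.0144). Young adult muscle was also higher than young adult neurons for pfn-3 and csq-1 (edgeR adjusted p = 0.000326 and 0.00144). Against those neurons lim-9 (1.24 ± 0.71, adjusted p = 0.279) and dyb-1 (-2.27 ± 1.05, adjusted p = 0.185) did not pass.

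Between stages unc-27 did change, being lower on day 12 than in young adults (log2 fold change -3.25 ± 0.56 SE; edgeR adjusted p = 0.027), 1 of 3 sarcomere genes that did so of 15 tested (0.949% of all genes were lower). In dauer 4 sarcomere genes were lower than in larvae (0.603% of all genes) and 2 lower than in young adults (0.0782%). Attachment genes gave 0 calls between stages by edgeR, with 2 to 4 of 22 at an unadjusted p under 0.05 (691 to 1760 of all 8954 genes), while DESeq2 called 1 to 4 (358 to 1168 of all genes) and limma 3 to 8 (179 to 1007). unc-120 and hlh-1 also gave none in these comparisons, although their SE of 0.72 to 0.97 is wider than that of unc-27.

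The genes most like each factor were sought among tested genes whose name is a symbol of letters and a number, so other genes were not ranked. The measure was Pearson's correlation of log2(CPM + 1) over the 14 SL1-tag libraries. CPM were TMM-scaled here, and hlh-1 was counted at its first coding exon site. The libraries share the muscle and non-muscle split and the depth differences, so the value is a description. For unc-120 the genes most alike were ttr-36, a transthyretin-related gene (r = 0.986), ndnf-1 (0.977), tag-273 (0.976), anmt-1 (0.965) and nrf-5 (0.962). For hlh-1 they were ndnf-1 (0.971), nrf-5 (0.967), twk-8, a two-pore-type potassium channel gene (0.964), far-1, a fatty acid and retinol binding protein gene (0.963), and anmt-1 (0.957). Each factor was 9th on the other's list (r = 0.952). ttr-36 held 1397 and 8135 reads in dauer, 458 and 1198 in young adults, 3 and 6 in multiple tissues and 0, 0, 0 and 1 in neurons. On day 12 it held 174 and 1467 reads. ndnf-1, on both lists, held 188 and 466 reads in dauer, 37 and 74 in young adults, and 0 in all neuron and multiple-tissue libraries.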

How the data were processed

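Tagged RNA of 15 libraries was pulled down, amplified by PCR and sequenced, per the labels' protocols. Trimmomatic, TopHat2 and DESeq appear in the submitters' processing notes, with no role or version, and the genome build is not given in the sources used here. The deposited gene and site tables hold whole read counts made by the authors. The authors' deposited RPM table holds counts scaled by 1 number per library whose meaning is not stated, and was used in 1 alternative. Other deposited tables give the authors' fold change as a ratio, their adjusted p-value, and other columns that mark earlier gene sets. In each table of counts, RPM or sites 3 per-sample columns match no library and were not used.

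The 14 SL1-tag libraries were fitted in 1 model of 8 group means with edgeR 4.0.16 (R 4.3.3): filterByExpr, TMM, quasi-likelihood F test with 6 residual degrees of freedom, adjustment by Benjamini and Hochberg over all tested genes, threshold 0.05. SE is the log2 fold change over the square root of F. A fitted log2 fold change for a group without reads depends on the prior count, so a bound from 3 counts over that group is given. Larval muscle is the mean of L1 and L2, 1 library each, whose spread is taken from the other groups. Replicates are labelled biological, and p-values measure the spread between them. hlh-1, with no row in the gene counts used here, was tested on trans plus cis site counts. Genes outside the 3 are named as the rest of the regulator list, the 2 members of each muscle list with the smallest p in young adults, and the 5 most alike among tested genes with such a symbol. Members, lists and tests were chosen with earlier results of these data known. Scripts were tested on simulated data. Alternatives were DESeq2 1.42.0 (size factors; Wald test), other filters, a replicate block, other sets of groups, limma 3.58.1 on log2(RPM + 1), trans plus cis sites, leaving out each library and, added after seeing the data, the first coding exon site of hlh-1.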

Additional observations from a re-analysis of the deposited data

Results flagged for a closer look

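Reads outside the gene counts carry all that is seen of hlh-1 and a large part of unc-120. The first coding exon site of hlh-1 held 3119 reads in the 8 SL1-tag muscle libraries against 3 in the 2 multiple-tissue libraries. Among 4384 genes that have a trans or cis site but no row in the gene counts, hlh-1 ranked 31 by muscle reads (5170), and 494 such genes held at least 100 muscle reads. Among 56 of these genes with at least 100 reads at a cis site that is a first exon start, hlh-1 ranked 7. The second coding exon site of hlh-1 held 2015 muscle reads and 0 in multiple tissues.

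The exon 3 site of unc-120 held 5003 muscle reads and 0 in multiple tissues, and 3790 of them came from the L2 library. In day 12 neuron replicate 2 it held 4 reads, when exon 1 held 1.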

How the results depend on the processing

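The 4 calls of unc-120 against multiple tissues and its call against young adult neurons passed under each alternative run, as did the call of hlh-1 against young adult neurons; the 4 calls of hlh-1 against multiple tissues passed under each alternative except the libraries left out that the report names. The day 12 difference of unc-120 between muscle and neurons passed by DESeq2's Wald test (4.42), with no low-count filter (5.44), by limma (3.40) and over trans and cis sites (4.91). Young adult against larvae passed with only those groups fitted (unc-120 1.21, hlh-1 -2.41) and for hlh-1 by the Wald test (-2.52). Over trans and cis sites unc-120 turned to -0.28 in dauer against larvae and -0.31 in dauer against young adult. The cause was not tested.

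With 2 pairs at most per comparison, the deviations of same-numbered libraries had correlations over genes of -0.037 to 0.017. That check cannot exclude a batch shared by same-numbered libraries, and the main model held no replicate block. With a replicate block unc-120 on day 12 against neurons passed (5.31), and the dauer against young adult count was 46, not 12.

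Counts of called genes follow in the order young adult, day 12, dauer and larvae against multiple tissues, young adult and day 12 muscle against neurons, day 12 against young adult, dauer against larvae, dauer against young adult, and young adult against larvae. The main counts were 458, 879, 667, 628, 1175, 487, 139, 295, 12 and 109. DESeq2's Wald test gave 1201, 1722, 1408, 1487, 1813, 1014, 882, 1168, 358 and 818, and limma gave 1992, 2756, 2376, 2448, 2556, 2169, 881, 1007, 179 and 579. For settings that moved a count by over 1.5 times: with no filter the counts were 1024, 1604, 1255, 1372, 864 (day 12 neurons), 612, 666, 160 and 415. With 50 reads in 2 libraries they were 1033 (dauer) and 994 (larvae) against multiple tissues and 258, 582, 39 and 249 between stages. With only the groups compared they were 4417, 2777, 2150, 5009, 2528 (young adult neurons), 169 (dauer against young adult), 2223 (young adult against larvae), and 0 both for day 12 against young adult and for dauer against larvae, where edgeR had 1491 and 1442 genes at an unadjusted p under 0.05. Over trans and cis sites they were 839, 1084 (dauer), 1258 (larvae), 1906, 835, 457 (dauer against larvae) and 291 (young adult against larvae). L1 and L2 as 1 group gave 93 for dauer and 31 for young adult against larvae. DESeq2's size factors gave 23 for dauer against young adult. They moved the all-gene median log2 fold change by 0.29 in day 12 muscle against multiple tissues and by -0.56 in young adult muscle against neurons, and the share of calls that were higher from 49.7% to 70.5% and from 66.0% to 45.1%. That share also moved from 55.6% to 33.0% for day 12 muscle against neurons, from 38.8% to 68.5% for day 12 against young adult, and from 41.7% to 60.9% for dauer against young adult.

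Leaving out 1 library at a time, the counts ranged from 175 to 843, 239 to 1772, 229 to 1230, 258 to 1314, 487 to 1818, 147 to 730, 0 to 413, 48 to 707, 1 to 139 and 0 to 326. In the same order the log2 fold change of unc-120 ranged from 8.03 to 12.58, 5.87 to 11.07, 8.33 to 12.87, 6.84 to 11.36, 11.90 to 12.72, 4.03 to 11.17, -2.92 to -0.82, 1.37 to 1.62, 0.18 to 0.43 and 1.15 to 1.24. That of hlh-1 ranged from 3.68 to 5.09, 3.10 to 4.68, 4.36 to 5.73, 5.81 to 7.39, 10.18 to 11.14, 1.44 to 2.71, -0.79 to 0.0053, -1.83 to -1.44, 0.51 to 0.88 and -2.53 to -2.10. The value of 0.0053 was for day 12 against young adult without day 12 muscle replicate 1. Depth limits the day 12 neuron comparisons most, where 3 counts are 26.8 and 52.5 CPM.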
